A study of Mus musculus with 4 samples.

Results

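The 8 heavy chain constant region genes Ighm, Ighd, Ighg3, Ighg1, Ighg2b, Ighg2c, Ighe and Igha were followed, out of 31053 genes in the single-cell tables, through the cell classes of a mouse germinal center (GC) response. They were taken by name as the constant region genes of the heavy chain locus, so no measured value chose them. The study immunized mice with sheep red blood cells (SRBC), sorted splenic B220+IgD- cells on day 10 and sequenced 1 library of 1 mouse for each of 4 genotypes. All mice were 8-week-old females on a C57BL/6J background and carried 1 Cγ1-cre allele. WT mice had no floxed allele, C mice were heterozygous for floxed Crebbp, K mice for floxed Kmt2d, and CK mice for both. Crebbp and Kmt2d encode an acetyltransferase and a methyltransferase that act on histones at enhancers. With 1 mouse a genotype there is no replicate check, so values are given without tests, and the 95% intervals in parentheses cover counting error only. Where 4 values follow each other without labels, their order is WT, C, K, CK.

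A B cell first joins its rearranged variable region to the constant region of Ighm, and alternative processing of the same long transcript gives Ighd. Class switch recombination deletes the DNA up to a downstream constant region, so that the cell then makes IgG, IgE or IgA with the same antigen specificity. Each of these downstream regions also has its own promoter, from which a germline transcript is made before switching. Plasma cells raise heavy chain mRNA greatly and shift it from the membrane form to the secreted form. A count per gene separates neither germline from switched transcripts nor membrane from secreted forms.

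The experiment itself acts on 2 members. The Cre of these mice was driven from Ighg1 (Cγ1), so every mouse had 1 modified Ighg1 allele and recombination of the floxed genes depended on transcription from that locus. The sort removed cells by IgD protein, which Ighd encodes. The counts come from the 3′ end of transcripts and do not report on the floxed exons, so they do not check the genotypes.

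In GENCODE vM21 on GRCm38 the 8 genes lie on the minus strand of chromosome 12, in the order Ighm (chr12:113418558-113422730), Ighd (chr12:113406604-113416324), Ighg3 (chr12:113356224-113361232), Ighg1 (chr12:113325240-113330523), Ighg2b (chr12:113302965-113307933), Ighg2c (chr12:113285325-113288932), Ighe (chr12:113269260-113273248) and Igha (chr12:113254830-113260236). Reads of 98 bases had to tell the IgG genes apart, so the last 98 coding bases of the 4 secreted IgG transcripts are shown 5′ to 3′, from the same annotation. Capitals mark the positions at which the 4 sequences were not all equal.
Ighg3: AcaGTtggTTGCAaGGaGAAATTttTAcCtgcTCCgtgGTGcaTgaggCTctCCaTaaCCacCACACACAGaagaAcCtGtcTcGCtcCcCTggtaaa
Ighg1: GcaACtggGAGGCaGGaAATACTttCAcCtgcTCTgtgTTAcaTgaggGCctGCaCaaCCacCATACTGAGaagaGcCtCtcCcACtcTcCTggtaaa
Ighg2b: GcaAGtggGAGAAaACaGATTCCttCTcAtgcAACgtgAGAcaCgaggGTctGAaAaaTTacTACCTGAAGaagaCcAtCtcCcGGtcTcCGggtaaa
Ighg2c: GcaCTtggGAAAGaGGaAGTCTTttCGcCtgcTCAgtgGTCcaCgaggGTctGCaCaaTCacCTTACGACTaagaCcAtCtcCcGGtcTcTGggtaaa
The 4 were equal at 47 of 98 positions, and pairs were equal at 59 (Ighg3 and Ighg2b) to 72 positions (Ighg3 and Ighg1, Ighg1 and Ighg2c). No stretch of 98 bases in the annotated transcripts of a member occurred in another member.

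IgM and IgA are made as polymers, and their secreted chains end in a tail piece that IgG lacks and through which the J chain (Jchain) joins them. The ends of the secreted coding sequences of Ighm (chr12:113420870-113420958) and Igha (chr12:113258771-113258859) are shown because these genes led the most plasma-like cells. Capitals mark the tail piece, the part of the last coding exon that the membrane form leaves out.
Ighm: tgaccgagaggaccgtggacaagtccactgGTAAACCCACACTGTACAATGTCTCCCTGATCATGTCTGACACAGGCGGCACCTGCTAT
Igha: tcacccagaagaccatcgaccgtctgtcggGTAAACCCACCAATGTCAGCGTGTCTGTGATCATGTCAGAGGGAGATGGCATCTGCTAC
The annotated length after the stop codon was 26 (Ighd) to 126 bases (Ighm) in the secreted forms. In the membrane forms it was 0 for Ighg2c and Ighe, and 268 (Ighm) to 1371 bases (Igha) for the other members. Levels were therefore compared between libraries and classes within a gene. Calls and shares that set the 8 genes side by side rank raw UMIs, and these unequal 3′ ends enter them.

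The libraries held 8071, 9981, 8105 and 12852 barcodes, with 33270825 to 39803865 unique molecular identifiers (UMIs) each. The authors annotated 1227, 2041, 2583 and 3953 of these as GC B cells of 6 subtypes, with median depths of 4931, 4053, 4759 and 3653 UMIs. All barcodes were also clustered without immunoglobulin genes and named from markers as GC B-like, non-GC B-like, marginal zone B-like, plasma-like, T-like and so on. The B220+IgD- sort still held 8321 T-like barcodes of 39009. Of the distinct barcode sequences, 143 of 38866 occurred in more than 1 library. The K library stood apart: 94.4% of its GC B-like cells lay in 3 clusters that held 0.360% of the GC B-like cells of the other libraries. Genotype and library cannot be told apart, for K above all.

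The level of a gene was given as UMIs per 1000000 UMIs of the class (CPM). In annotated GC B cells Ighm was at 3406 CPM (WT), 2562 (C), 3503 (K) and 2866 (CK). C and CK lay below WT, with log2 ratios of -0.41 (-0.44 to -0.38) and -0.25 (-0.27 to -0.23), and K was close to WT (0.04, 0.02 to 0.06).

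Ighd was at 73.7 CPM (WT), 61.4 (C), 32.0 (K) and 30.9 (CK). K and CK were far below WT and C, with log2 ratios over WT of -1.20 (-1.40 to -1.01) and -1.26 (-1.44 to -1.07), and C was nearer to WT (-0.26, -0.45 to -0.08).

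Ighg1, the constant region of the main IgG of T-dependent responses and the locus of the Cre, was at 96.5 CPM (WT), 163 (C), 222 (K) and 155 (CK). WT was lowest and K highest, with log2 ratios over WT of 0.75 (0.61 to 0.90) for C, 1.20 (1.07 to 1.33) for K and 0.68 (0.55 to 0.82) for CK. In T-like cells, which are not known to make it, Ighg1 was at 18.3, 14.7, 38.8 and 15.6 CPM, so this background was also highest in K. With the mean T-like UMIs per barcode subtracted, the log2 ratios were 0.89 (C), 1.25 (K) and 0.82 (CK).

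Ighg2b was at 91.4 CPM (WT), 177 (C), 105 (K) and 126 (CK). C was highest with a log2 ratio over WT of 0.95 (0.81 to 1.10), against 0.20 (0.06 to 0.35) for K and 0.47 (0.33 to 0.60) for CK. T-like cells had 29.6 CPM in WT and 10.2 to 12.5 CPM in the other libraries, and with this background subtracted the ratios were 1.29, 0.48 and 0.79. The 3 highest T-like cells of WT held 50.9% of its Ighg2b background, and without the 3 highest of each library, chosen after seeing the data, the ratios were 1.09, 0.28 and 0.58. With GC B-like cells at or above 2500 genes, which the annotation leaves out, added, they were 0.06 (-0.03 to 0.15) for K and 0.24 (0.15 to 0.33) for CK.

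Ighg3, the first IgG gene downstream of Ighd, was at 183 CPM (WT), 231 (C), 228 (K) and 197 (CK), with log2 ratios over WT of 0.34 (0.23 to 0.44), 0.32 (0.22 to 0.42) and 0.11 (0.01 to 0.21). A single K centroblast held 364 of the 2893 Ighg3 UMIs of K. Without the highest cell of both libraries, a comparison chosen after seeing the data, the K ratio was 0.16 (0.06 to 0.26). With GC B-like cells at or above the gene limit of the annotation (2500 genes) added, the ratios of Ighg3 were 0.40, 0.51 and 0.29 for C, K and CK, and without Prememory cells, also chosen after seeing the data, that of CK was 0.00 (-0.10 to 0.10). The IgG genes thus differed in which library was highest: K for Ighg1 and C for Ighg2b. For Ighg3, C and K were nearly level, and their order depended on the cells used. Without the highest cell of each library C was at 229 CPM and K at 199.5 CPM, while with gene-limit cells added K had the higher ratio.

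Ighg2c, the IgG2 gene of C57BL/6 mice that interferon-gamma favours, was at 5.61, 5.29, 2.21 and 8.82 CPM, from 34, 46, 28 and 136 UMIs. CK T-like cells had 9.14 CPM of it, as much as CK GC B cells, against 0.377 to 1.31 CPM in the T-like cells of the other libraries. With this background subtracted the CK ratio over WT turned from 0.65 (0.10 to 1.24) to -0.46, and to -0.053 without the 3 highest T-like cells of each library. In WT 1 centrocyte held 13 of the 34 UMIs, so the reference of these ratios rests partly on 1 cell. Without the highest cell of both libraries, chosen after seeing the data, the ratios were -0.87 (-1.78 to 0.04) for K, from -1.34, and 1.28 (0.61 to 2.02) for CK. The K ratio was then no longer past 2-fold and that of CK was. With cells at or above the gene limit added, the C ratio moved from -0.08 to 1.13 (0.74 to 1.54).

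Igha, the constant region of mucosal IgA, was at 23.9, 26.8, 26.0 and 22.6 CPM, and the intervals of its log2 ratio over WT all spanned 0 (-0.14 to 0.47 for C, -0.16 to 0.41 for K, -0.37 to 0.21 for CK). With each subtype weighted by its share in WT, chosen after seeing the data, the CK ratio was 0.57, and 1 of the CK Prememory cells held 29 of their 37 Igha UMIs. Ighe, the constant region of IgE, had 5, 14, 11 and 9 UMIs in these cells, and no difference in it was detectable at this depth.

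**Figure D1:**
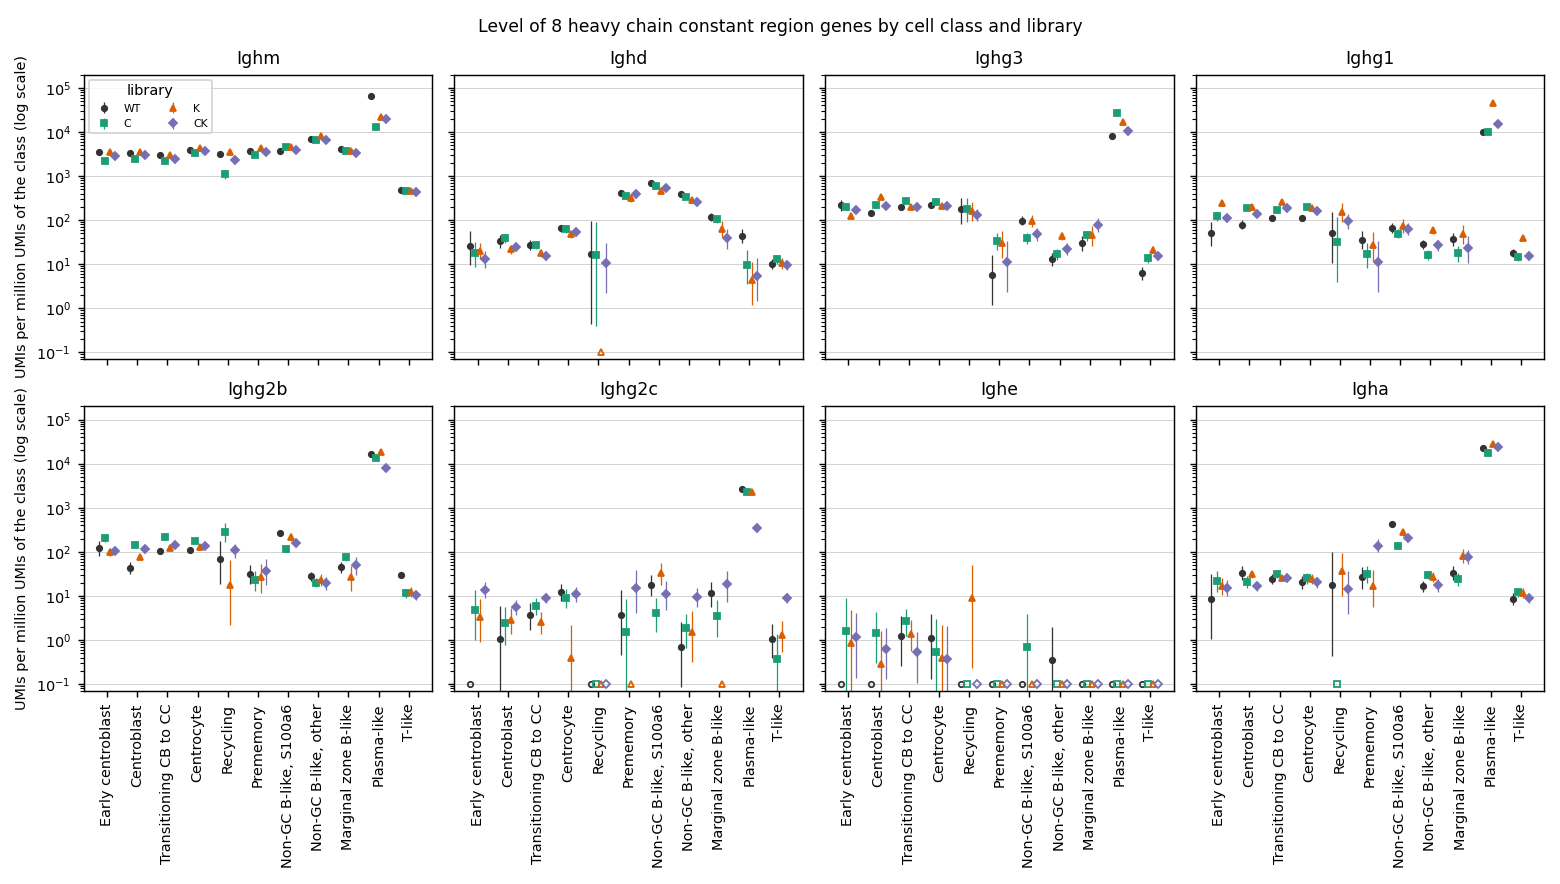
Levels of the 8 genes (UMIs per 1000000 UMIs of the class, log axis) in the 6 annotated GC B subtypes and the other classes, by library, with exact Poisson 95% intervals as error bars and hollow markers at the bottom where no UMI was counted. Ighd is highest in the S100a6 non-GC cluster, at 464 to 685 CPM, and among GC subtypes in Prememory cells, at 324 to 416 CPM, all genes but Ighd and Ighe are highest in plasma-like cells, and Ighm in T-like cells is at 430 to 481 CPM.

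Among all genes with 20 or more UMIs in the 2 libraries compared, 1.61% were past 2-fold higher than WT and 0.877% past 2-fold lower for C, against 1.79% and 8.89% for K and 3.91% and 2.5% for CK. The median log2 ratio of these genes was 0.01 (C), -0.16 (K) and -0.03 (CK). Of the 7 members over this minimum, none was past 2-fold for C. For K, Ighg1 was past it upward and Ighd and Ighg2c downward, and for CK Ighd was past it downward. The K ratios of 1.20 for Ighg1 and -1.20 for Ighd stand beside that median of -0.16.

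To follow the genes cell by cell, a cell was called led by the gene with the most UMIs among the 8, where this gene had at least 3 UMIs and no tie. Of the 9804 annotated GC B cells, Ighm led 6577, Ighg3 695, Ighg1 677, Ighg2b 510, Ighd 17, Igha 16 and Ighg2c 10, and 1302 had no leading gene. Ighe led 0 cells, which allows a share of up to 0.0306%. Ighm-led cells had a median of 16 Ighm UMIs, and cells led by Ighg3, Ighg1 and Ighg2b had medians of 7, 5 and 6 UMIs of that gene and of 0 Ighm UMIs.

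A switched gene (an IgG gene, Ighe or Igha) led 13.8% (11.9 to 15.8) of GC B cells in WT, 24.3% (22.4 to 26.2) of those of C, 20.6% (19.1 to 22.2) of K and 18.0% (16.8 to 19.2) of CK, with Clopper-Pearson intervals. All 3 heterozygous libraries were above WT, by 10.5 points for C (7.72 to 13.2), 6.86 for K (4.29 to 9.34) and 4.21 for CK (1.84 to 6.46). With each subtype weighted by its share in WT the differences were 10.1, 5.04 and 2.29 points, and with cells at or above the gene limit added that of CK was 2.45 (0.426 to 4.42). Of T-like cells, 0.264%, 0.155%, 0.352% and 0.189% were led by a switched gene.

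Depth enters this share, since a gene needs 3 UMIs to lead. Cells without a leading gene made up 7.09%, 15.9%, 9.29% and 16.4%, and of the cells with one, 14.8%, 28.8%, 22.7% and 21.5% were led by a switched gene. With each cell thinned to 2000 UMIs, which left out 44, 106, 88 and 330 shallower cells, the switched-led shares were 7.27%, 14.3%, 12.7% and 10.4%. The differences from WT were then 6.99, 5.40 and 3.14 points. With a minimum of 10 UMIs the differences from WT were 1.22 points for C (-0.314 to 2.66), 2.52 for K (0.988 to 3.94) and -0.896 for CK (-2.23 to 0.260). At that minimum only K was above WT beyond counting error, and the CK difference had turned.

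Different IgG genes made up the gain. Ighg1 led 4.07%, 7.35%, 9.68% and 5.74% of GC B cells, and Ighm led 78.6%, 59.5%, 70.0% and 65.5%. Ighg2b led 3.10%, 7.94%, 4.03% and 5.21%, and Ighg3 led 6.03%, 8.72%, 6.74% and 6.805%. Ighg1 was thus most frequent in K and Ighg2b and Ighg3 in C. The differences from WT were 5.60 points for Ighg1 in K (3.92 to 7.19), 4.84 for Ighg2b in C (3.24 to 6.39) and 2.69 for Ighg3 in C (0.791 to 4.51), while those of Ighg3 spanned 0 for K (-1.05 to 2.34) and CK (-0.894 to 2.29).

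Among switched-led cells alone, Ighg1 led 29.6% (22.8 to 37.1) in WT and 46.9% (42.6 to 51.2) in K. Ighg2b led 22.5% (16.4 to 29.5) in WT and 32.7% (28.6 to 37.1) in C. Ighg3 led 43.8% (36.2 to 51.6) in WT and 32.6% to 37.8% in the other libraries. The K share of Ighg1 and the WT share did not overlap in their intervals.

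**Figure D2:**
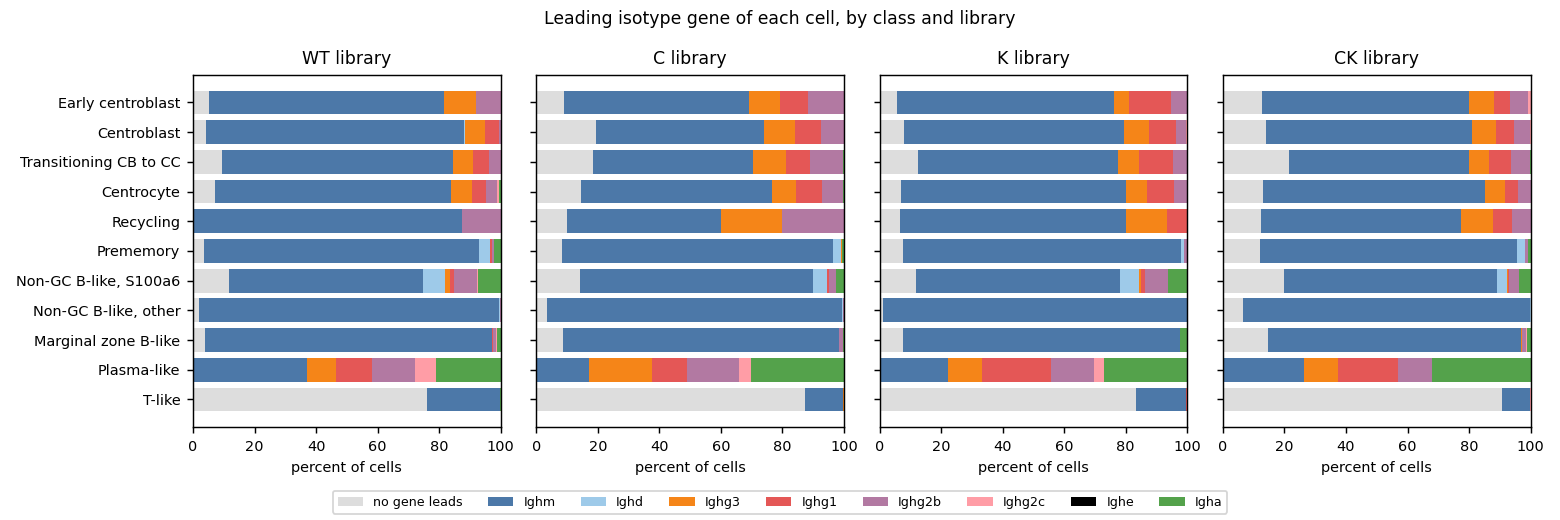
Share of cells (percent) led by each isotype gene in the GC B subtypes and the other classes, 1 panel per library, with grey for cells in which no gene led. Switched genes (orange, red, purple, pink and green) lead 11.5% of WT centroblasts against 19.1% to 25.9% in the other libraries, few Prememory cells, and most plasma-like cells.

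Ighm and a switched gene occurred together, at 3 or more UMIs each, in 5.54%, 7.06%, 7.94% and 5.72% of GC B cells. Over all libraries Scrublet called 6.84% of these 643 cells doublets, against 0.345% of the 1740 cells with a switched gene alone and 2.74% of the 6179 with Ighm alone. Their median depth was 5362 UMIs, against 4587.5 and 4151. Of the 2383 cells with a switched gene at this level, 118 had a second one. The part of doublets, free RNA and germline transcripts in these cells was not tested.

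The GC subtypes run from dividing centroblasts to centrocytes, which are selected, and Prememory cells. Centroblasts were switched-led in 11.5%, 25.9%, 20.6% and 19.1%, with differences from WT of 14.4 points for C (7.52 to 20.6), 9.14 for K (2.82 to 14.5) and 7.58 for CK (1.56 to 12.5). In the cells between centroblast and centrocyte the shares were 15.5%, 29.6%, 22.4% and 19.96%. In centrocytes they were 16.2%, 23.5%, 19.8% and 14.7%, and the intervals of the difference from WT spanned 0 for K (-1.55 to 8.48) and CK (-6.13 to 2.82). Whether the differences from WT themselves differ between subtypes was not tested.

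The levels by subtype are given for Ighg1 and Ighg2b. In centroblasts Ighg1 was at 79.0, 184, 199 and 141 CPM and Ighg2b at 43.6, 143, 78.4 and 117 CPM, with log2 ratios over WT of 1.22, 1.33 and 0.84 for Ighg1 and 1.72, 0.85 and 1.42 for Ighg2b. In centrocytes Ighg1 was at 109, 196, 193 and 163 CPM, with log2 ratios of 0.85 (0.60 to 1.10), 0.82 (0.58 to 1.07) and 0.58 (0.34 to 0.83). WT was lowest for both genes in centroblasts, and for Ighg1 in centrocytes. In CK centrocytes the Ighg1 level was above WT, while the share of cells led by Ighg1 was 4.27% against 4.45% in WT. Median depth was 2670 UMIs in CK centrocytes and 4741 UMIs in WT centrocytes. With cells thinned to equal depth, which left out 161 CK and 12 WT centrocytes, 16.3% (CK) and 12.2% (WT) had an Ighg1 UMI. The thinned switched-led shares of centrocytes were 10.3% (CK) and 11.4% (WT). The part of depth in the share led by Ighg1 was not tested.

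Prememory cells stood apart from the centroblast and centrocyte subtypes. A switched gene led 3.45% of them in WT (5 of 145), 0.889% in C (2 of 225), 1.08% in K (1 of 93) and 1.74% in CK (2 of 115). The differences from centrocytes of the same library were -12.8 (-17.5 to -7.11), -22.6 (-26.6 to -18.3), -18.7 (-22.3 to -13.0) and -13.0 points (-15.9 to -8.08). Ighm led 83.5% to 90.3% of Prememory cells. Non-GC B-like cells were near these shares, with Ighm leading 87.4% to 94.7% and a switched gene 4.06%, 1.74%, 2.06% and 1.90%. Of the 795 barcodes of 1 cluster named non-GC B from its markers, 65.0% were annotated as GC B cells by the authors. The subtypes of these barcodes were not listed. The Ighg1 level of Prememory cells was 35.97, 16.7, 27.0 and 11.3 CPM, against 18.3, 14.7, 38.8 and 15.6 CPM in T-like cells. Igha in CK Prememory cells was at 139 CPM.

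The authors also ranked the cells along a trajectory, and the cells of each library were split by rank into 4 bins of equal size. Switched-led cells made up 16.6%, 33.7%, 25.7% and 23.96% of the first bin and 5.56%, 10.6%, 14.6% and 8.70% of the last. Ighd was at 22.5, 25.2, 18.8 and 16.5 CPM in the first bin and at 224, 202, 94.4 and 94.5 CPM in the last. Median depth was lower in the last bin, at 3712.5 against 6160 UMIs in WT and 2377 against 5523 in CK, and its part in the share of led cells was not tested.

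Ighd followed the subtype. Prememory cells had 416, 351, 324 and 390 CPM of it, against 33.3, 39.0, 21.6 and 24.6 CPM in centroblasts and 66.2, 63.2, 47.5 and 52.4 CPM in centrocytes. Prememory cells, which were 11.8%, 11.02%, 3.60% and 2.91% of the annotated cells, held 49.2%, 43.3%, 23.6% and 21.8% of all Ighd UMIs of the annotation. The share of Prememory cells therefore moved together with the Ighd level of the whole. The gene limit of the annotation left out 840, 639, 796 and 652 further GC B-like cells, which have no subtype. The Prememory shares thus describe the annotated cells only, and the part of the gene limit in them was not tested.

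With Prememory cells left out, a comparison chosen after seeing the data, Ighd was at 41.0, 37.7, 25.0 and 24.6 CPM, and the log2 ratios over WT were -0.71 (-0.96 to -0.46) for K and -0.74 (-0.98 to -0.49) for CK. With each subtype weighted by its share in WT, also chosen after seeing the data, they were -0.43 and -0.25. Within Prememory cells they were -0.36 (-0.72 to -0.01) and -0.09 (-0.44 to 0.25). The lower Ighd of K and CK was thus smaller once the mix of subtypes was held fixed. With GC B-like cells at or above the gene limit of the annotation added, the C ratio turned from -0.26 to 0.10 (-0.05 to 0.25).

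Ighd was also set against Ighm, with which it shares a primary transcript in unswitched cells. Annotated GC B cells had 2.16 (1.97 to 2.38), 2.396 (2.19 to 2.61), 0.914 (0.827 to 1.01) and 1.08 (0.982 to 1.18) Ighd UMIs per 100 Ighm UMIs. In centroblasts the values were 1.00, 1.61, 0.607 and 0.820. In Prememory cells they were 11.1, 11.4, 7.43 and 11.2, so that K was lowest in each of these sets, while CK Prememory cells lay at the level of WT.

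Outside the GC, K and CK were below WT and C in marginal zone B-like cells and in non-GC B-like cells other than 1 cluster. In the 5637 non-GC B-like cells outside that cluster, which has S100a6 among its leading genes, Ighd per 100 Ighm was 5.65 (5.32 to 6.01), 5.05 (4.74 to 5.37), 3.59 (3.30 to 3.91) and 3.78 (3.44 to 4.15). In the S100a6 cluster CK was level with C, at 13.2 (11.8 to 14.7) against 13.5 (12.6 to 14.5), with WT at 18.4 and K at 10.3. Marginal zone B-like cells had 2.92 (2.404 to 3.53), 2.80 (2.36 to 3.30), 1.73 (1.11 to 2.59) and 1.18 (0.659 to 1.95). T-like cells, where both genes are background, had 2.13, 2.86, 2.28 and 2.22, with intervals that overlapped between the libraries.

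**Figure D3:**
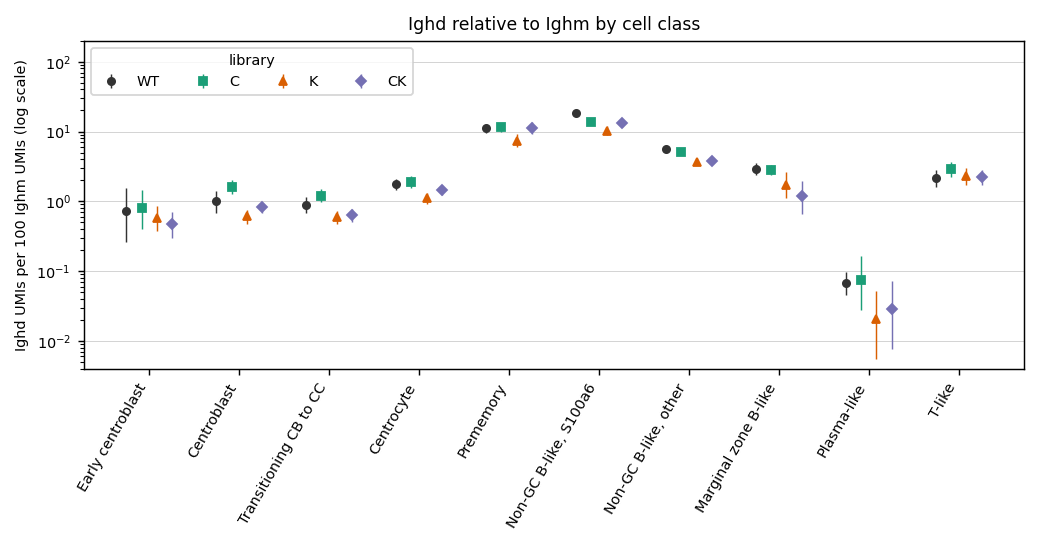
Ighd UMIs per 100 Ighm UMIs (log axis) by cell class and library, with exact 95% intervals as error bars. The ratio is highest in the S100a6 non-GC cluster (10.3 to 18.4) and Prememory cells (7.43 to 11.4) and lowest in plasma-like cells (0.0202 to 0.0747), and K lies below WT in centroblasts (0.607 against 1.00).

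Non-GC B-like cells were split into the cluster of 1778 cells with S100a6 among its leading genes, after Serpinb1a and Ly6d, which also lead other non-GC B-like clusters, and the remainder. In the remainder Ighm led 97.7%, 96.0%, 98.8% and 93.4% of cells, and a switched gene led at most 0.165%. In the S100a6 cluster, with 339, 803, 161 and 475 cells, a switched gene led 18.0% (14.1 to 22.5), 5.48% (4.01 to 7.29), 15.5% (10.3 to 22.1) and 7.58% (5.36 to 10.3). At 2000 UMIs per cell, which only 195, 153, 66 and 61 of its cells reached, the shares were 25.1%, 13.1%, 18.2% and 26.2%, so that C was still lowest but CK was not below WT.

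The switched UMIs of this cluster had another make-up than those of GC B cells. Igha held 49.2%, 39.6%, 40% and 42.3% of them and Ighg2b 30% to 33.8%, while Igha held 5.96%, 4.43%, 4.46% and 4.43% of the switched UMIs of annotated GC B cells. In WT, Igha and Ighg2b each led 7.37% (4.83 to 10.7) of its cells, and Ighg1 led 1.47% (0.481 to 3.41). Ighd was high in this cluster too, with 18.4, 13.5, 10.3 and 13.2 UMIs per 100 of Ighm.

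The plasma-like cells were few, at 43, 53, 63 and 72, and each had a leading gene. Ighm led 37.2%, 16.98%, 22.2% and 26.4% of them, Igha 20.9%, 30.2%, 27.0% and 31.9%, and Ighg1 11.6%, 11.3%, 22.2% and 19.4%. Switched genes together led 62.8% (46.7 to 77.0), 83.0% (70.2 to 91.9), 77.8% (65.5 to 87.3) and 73.6% (61.9 to 83.3). The difference from WT was 20.2 points for C (1.07 to 38.6), and its interval spanned 0 for K (-3.79 to 33.7) and CK (-7.61 to 29.6).

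Igha led 65 of the 231 plasma-like cells but 16 of the 9804 annotated GC B cells, and it was the most frequent switched leader of plasma-like cells in each library. The median count of the leading gene was 954 UMIs in plasma-like cells led by Ighm, 1389 by Ighg3, 976 by Ighg1, 931 by Ighg2b and 802 by Igha. In these cells the leading gene held a median of 98.5% (Ighg2b) to 99.96% (Ighm) of the isotype UMIs, against 77.97% in the 7 cells led by Ighg2c. In WT the 3 highest cells held 80.4% of the Ighg3, 79.4% of the Ighg1 and 80.3% of the Ighg2b UMIs of plasma-like cells. Since so few cells set the sums, levels of plasma-like cells were not compared between genotypes.

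**Figure D4:**
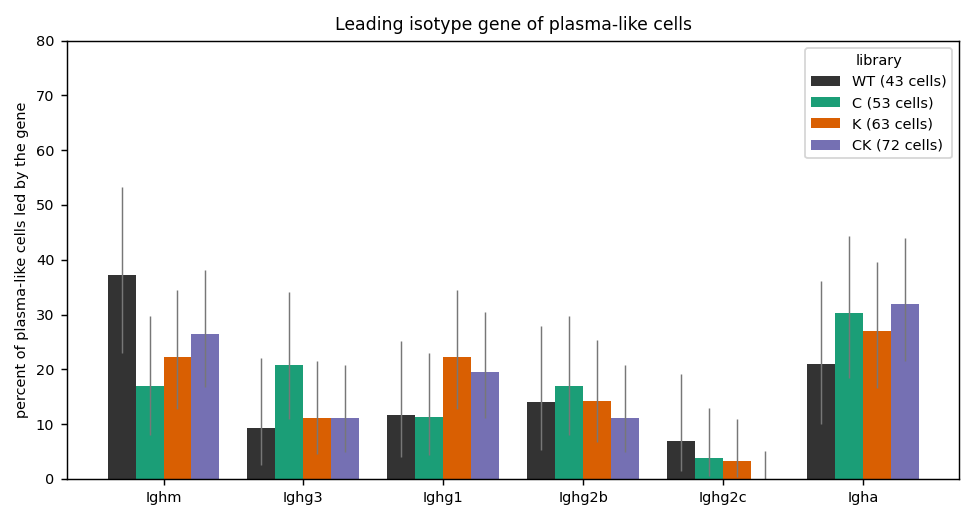
Share of plasma-like cells (percent) led by each isotype gene, by library, with exact Clopper-Pearson 95% intervals as error bars. Ighm leads 37.2% in WT and 16.98% to 26.4% in the other libraries, Igha leads 20.9% to 31.9%, and for each gene the intervals of the 4 libraries overlap.

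T cells do not rearrange the heavy chain locus productively, so their UMIs of the members were taken as the background of each library. T-like cells had 481, 454, 458 and 430 CPM of Ighm, or 1.77, 1.25, 1.44 and 0.980 UMIs per barcode, and Ighm led 23.6%, 12.4%, 16.1% and 9.15% of them. Their median depth was 3282, 2405, 2781 and 1974 UMIs. A lead of 3 UMIs therefore occurred by background often for Ighm and rarely for the switched genes.

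With each cell thinned to 2000 UMIs, 84.1%, 69.1%, 77.5% and 74.0% of GC B cells had an Ighm UMI (unthinned 90.1%, 76.2%, 84.0% and 78.9%). Of T-like cells 57.6%, 53.2%, 51.7% and 49.4% had one (unthinned 72.3%, 62.0%, 65.6% and 53.3%). For Ighg1 the thinned shares were 10.7%, 16.6%, 20.8% and 17.2% of GC B cells against 3.18%, 2.44%, 8.07% and 1.95% of T-like cells (unthinned 17.7%, 21.7%, 31.2% and 22.995% against 6.34%, 3.72%, 10.4% and 3.34%). The gap between the classes was wider for Ighg1 than for Ighm in relation to the T-like share.

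For Ighg3 the thinned shares were 15.98%, 21.3%, 18.0% and 17.7% of GC B cells against 1.34%, 2.44%, 4.52% and 2.99% of T-like cells. For Ighd they were 10.8%, 8.79%, 6.37% and 5.41% against 1.74% to 2.19%. Igha, at 4.06% to 5.61% against 1.63% to 2.57%, was nearer to its background than Ighg3 and, in WT, C and K, than Ighd. In CK, Ighd (5.41% against 2.15%) and Igha (4.06% against 1.63%) were about equally near in relation to the T-like share.

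**Figure D5:**
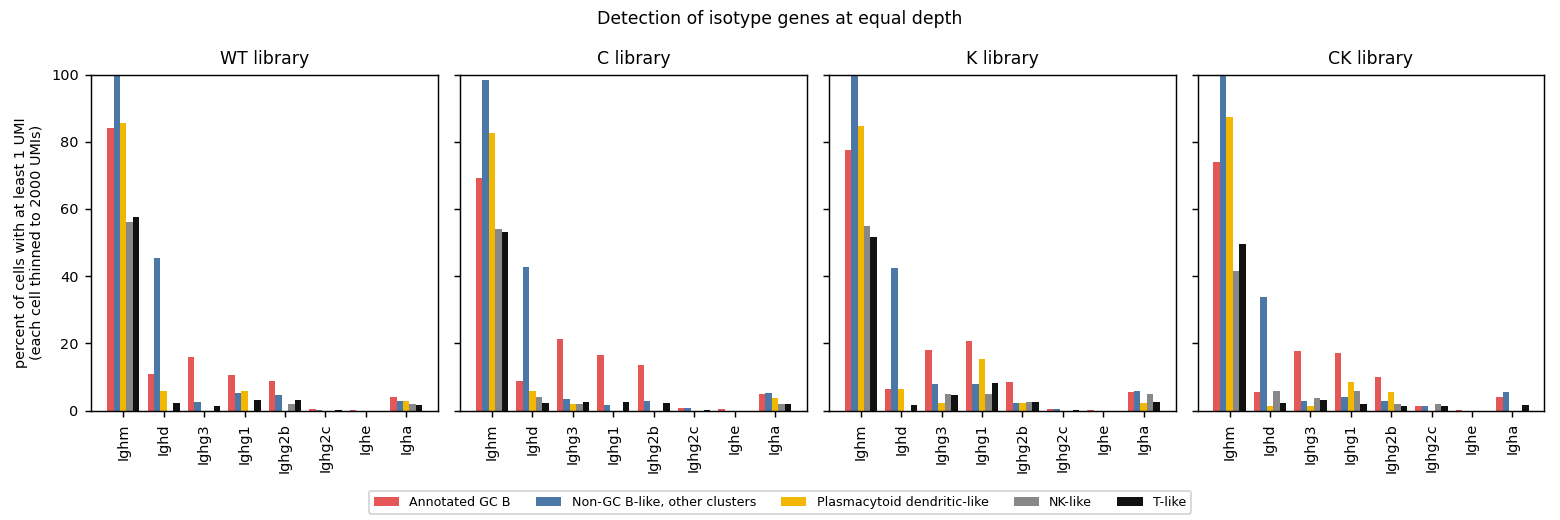
Share of cells (percent) with at least 1 UMI of each gene after thinning each cell to 2000 UMIs, in 5 cell classes, 1 panel per library. Ighm is found in 49.4% to 57.6% of T-like cells and in 82.7% to 87.3% of plasmacytoid dendritic-like cells, while Ighg3 is found in 15.98% to 21.3% of annotated GC B cells against 1.34% to 4.52% of T-like cells.

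The make-up of the switched UMIs of T-like cells differed between libraries. Ighg2b held 46.3% (41.1 to 51.7) of them in WT, against 21.9%, 14.6% and 17.4% for C, K and CK. In WT 1 T-like cell held 66 of these 165 Ighg2b UMIs, and with the 3 highest cells of each gene left out, chosen after seeing the data, the Ighg2b shares were 32.0%, 20.1%, 13.8% and 17.8%. Ighg1 held 45.3% in K against 26.6% to 28.7% elsewhere, and Ighg2c held 15.5% (12.2 to 19.3) in CK against 0.719% to 1.69%.

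Plasmacytoid dendritic-like cells had more Ighm than T-like or NK-like cells. They had 1212, 1080, 1136 and 1118 CPM of it, NK-like cells 848, 778, 889 and 748 CPM. The light chain gene Igkc did not keep one ratio to Ighm across these classes: in WT it was at 693 CPM in plasmacytoid dendritic-like, 671 in T-like and 1752 in NK-like cells. The B cell gene Cd79a was at 169, 93.4 and 439 CPM in the same 3 classes of WT, and the part of B cell RNA in their Ighm level was not tested.

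Ighe had the fewest UMIs of the members, with 81 UMIs in 78 of the 39009 barcodes and at most 2 UMIs in a cell. Annotated GC B cells held 39 of these UMIs in 38 cells, and GC B-like cells at or above the gene limit held 28 in 27 cells. No Ighe UMI was found in the 231 plasma-like cells, which allows a share of up to 1.30% of cells with one, nor in the 8321 T-like cells, which allows up to 0.0361%. Of the 38 annotated cells, 21 lay between centroblast and centrocyte, and 0 of the 578 Prememory cells had one (up to 0.519%).

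The machinery of switching was read from 4 lists of genes in annotated GC B cells. Of 32 genes for switch recombination and repair, 29 were in the table, each over the 20-UMI minimum. None was past 2-fold for C, and 3 were lower for K: Trp53bp1, which protects broken ends (-1.18), the damage kinase Atm (-1.30) and the end-joining kinase Prkdc (-1.27). For CK the exonuclease Exo1 was higher (1.14, 0.70 to 1.60). The list medians were 0.14, -0.23 and 0.34. The 3 of 29 for K stand beside 8.89% of all genes, and the 1 of 29 for CK beside 3.91%. With cells at or above the gene limit added, the medians were -0.07, -0.41 and 0.07, and 0 of 29 were past 2-fold for CK. Exo1 with the mix of subtypes held fixed was not tested.

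Of 21 genes for signals and factors that direct switching, 0 were past 2-fold for C. For K, 3 of the 20 over the minimum were lower: the interferon-gamma receptor chain Ifngr2 (-1.11), Smad4, a mediator of TGF-beta signals (-1.01), and Runx3, a factor for IgA switching (-1.01). For CK Smad3 was past 2-fold lower from 11 UMIs against 9 in WT, with an interval that spanned 0 (-2.46 to 0.39). The list medians were -0.18, -0.57 and -0.42, beside 0.01, -0.16 and -0.03 for all genes. The 3 of 20 for K stand beside 8.89% of all genes, and the 1 of 21 for CK beside 2.5%. With cells at or above the gene limit added, 1 of 21 was past 2-fold for K.

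Of 9 genes over the minimum for heavy chain RNA processing, assembly and secretion, 0 were past 2-fold for C and CK, and 2 were lower for K, beside 8.89% of all genes. The list medians lay close to 0 (-0.000715 for C, 0.031 for K and 0.0020 for CK). Zfp318, needed for the long transcript that gives Ighd, was at 16.2, 16.4, 4.73 and 10.7 CPM, with log2 ratios over WT of -1.77 (-2.26 to -1.29) for K and -0.59 (-0.96 to -0.22) for CK. Zfp318 and Ighd were both below WT in K and CK. A link between them was not tested, and neither was Zfp318 with the mix of subtypes held fixed. Ell2, which favours the secreted form, was at 47.5, 38.7, 21.2 and 52.4 CPM, lowest in K. Jchain was at 1009, 1243, 1185 and 1107 CPM.

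Of 3 receptors that bind an isotype, Fcer2a (CD23, the low-affinity IgE receptor) was past 2-fold lower for K and CK, at 138, 124, 47.2 and 35.0 CPM. This stands beside 8.89% (K) and 2.5% (CK) of all genes. Fcer2a was also one of the markers used to name non-GC B-like cells. Its level with the mix of subtypes held fixed was not tested. Fcmr, the IgM receptor, was at 438, 379, 412 and 294 CPM, with a log2 ratio of -0.57 (-0.64 to -0.50) for CK.

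Profiles over 45 combinations of class and library with at least 50 cells were compared by Pearson r of log2(CPM + 10), among 5882 genes outside the immunoglobulin loci. The profiles share libraries, and r describes likeness only. The genes most like Ighm were Gm30211 (0.88), Mzb1 (0.87), Dennd5b (0.85), Ero1lb (0.84) and Atp6v0a1 (0.80). Those most like Ighd were Fam129c (0.93), Snn (0.92), Fam43a (0.91), Gm15848 (0.89) and Serpinb1a (0.88). Those most like Ighg1 were Edem1 (0.94), Slpi (0.91), Jchain (0.90), Pon3 (0.87) and Prg2 (0.87). Plasma-like cells of C, K and CK were among the profiles. Mzb1, Slpi and Jchain were also among the markers used to name plasma-like cells.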

How the data were processed

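Splenic B220+IgD- cells were profiled with 10x Chromium 3′ libraries, 1 per genotype. The deposited UMI counts per gene and barcode were made by the authors with Cell Ranger 3.0 on mm10 (per the processing notes) and not normalized. A deposited table gives subtypes and, per cell, UMI and gene counts, the percent of mitochondrial UMIs and a trajectory rank, a score; the authors made it with Seurat 4.0 after integration with other data sets, and it holds cells with under 2500 genes and under 8% mitochondrial UMIs. The gene annotation used for counting is not given in the sources used here.

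Barcodes were clustered with scanpy 1.11.5 (3000 variable genes without immunoglobulin genes, 30 components, 15 neighbors, Leiden resolution 1.5) and named from marker lists, Scrublet calls being kept and marked. Clusters of mostly doublet calls, or with markers of another class, stayed unnamed. Levels have exact Poisson intervals, shares Clopper-Pearson intervals, log2 ratios exact conditional binomial intervals, and differences combine both. No test was possible with 1 library per group. A share of 0 is given with the limit that 3 counts allow. UMIs are not divided by length. A gene was called past 2-fold with at least 20 UMIs over both libraries. Interval scripts were tested on simulated counts. Python 3.11.15, numpy 2.4.6, pandas 2.3.3 and scipy 1.17.1 were used.

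All members are named. From 4 lists, genes past 2-fold in any genotype are named (at most 5 per list) and always Zfp318, Ell2, Jchain, Fcmr and Fcer2a; 1 further gene of this rule is not reported here. The 5 genes most like Ighm, Ighd and Ighg1 are named. The genes, lists and tests were chosen with earlier results of these data known. Leaving out the Prememory cells, the unnamed cluster the highest cell or the highest T-like cells, and weighting levels by subtype, were chosen after seeing the data.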

Additional observations from a re-analysis of the deposited data

Results flagged for a closer look

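A cluster of 324 barcodes with markers of both GC B and erythroid cells stayed unnamed. Its 148 annotated barcodes count among the annotated GC B cells, and the others enter no comparison. It was singled out because Ighg1 was at 1147 CPM in its WT and 2803 CPM in its K barcodes, and Ighg3 at 1380 CPM in K and 3388 CPM in CK, all above the T-like level of the library. Few cells carried these values: the 3 highest held 95.2% and 84.4% of the Ighg1 UMIs and 93.7% and 96.6% of the Ighg3 UMIs, and in CK 1 cell held 410 of the 435 Ighg3 UMIs.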

How the results depend on the processing

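Of the alternatives to results that answer a comparison, 133 left the value within its counting interval (list counts within 1.5 times), 31 moved it further and 2 turned its sign (Ighd in C and the CK switched-led difference). With cells at or above the gene limit added, Ighd in C turned to 0.10, Ighd in K and CK moved to -0.74 and -0.71 and Ighg1 in K to 0.98. Without Prememory cells Ighd was -0.71 in K and -0.74 in CK, and weighted by the WT subtypes -0.43 and -0.25. The T-like background turned Ighg2c in CK, a gene counted apart from these, to -0.46, and to -0.053 without the 3 highest T-like cells. The switched share of isotype UMIs, 10.3%, 18.7%, 14.2% and 14.97% in WT, C, K and CK, was 19.1%, 32.7%, 26.1% and 26.3% as a mean over cells, and in C 19.3% without doublet calls and 19.7% after subtraction of background. The switched-led difference from WT in C was 1.22, 6.50 and 6.99 points with at least 10 UMIs, a 4-fold margin and thinning, and with at least 10 UMIs 2.52 in K and -0.896 in CK. Ighm UMIs per T-like barcode were 1.59, 1.03, 1.26 and 0.878 in barcodes without B lineage UMIs, and 1.38 (K) and 0.916 (CK) without doublet calls. Of list counts, switching signals fell to 1 in K with gene-limit cells and to 0 in CK with those cells or with 100 UMIs, and switch recombination to 0 in CK with those cells. Genes past 2-fold numbered 252, 1097 and 675, with 100 UMIs 56, 618 and 307, and in CK with gene-limit cells 318. The causes were not tested. The 99th percentile of T-like cells was at most 2 UMIs for switched genes, below the minimum of 3, so this limit could not change their calls.

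Depth limits Ighe and Ighg2c, which have under 150 UMIs per library in GC B cells. No paired analysis was possible because each genotype has 1 library.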
